A study of Mus musculus with 32 samples.

Results

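Of 32 lymphomas of Eµ-myc mice, 12 showed no chromosome whose genes were shifted together, and these are compared here with the other 20. A shift is a chromosome whose median gene lay over 0.15 log2 units above or below its usual level in the tumours. The 12 tumours without a shift are D2, D3, D4, D5, D9, D11, D21, D24, D25, D26, D29 and D30, and the 20 with a shift are D1, D6, D7, D8, D10, D12, D13, D14, D15, D16, D17, D18, D19, D20, D22, D23, D27, D28, D31 and D32. Both groups were thus selected on the array values themselves, and neither is a group that the labels give. Every tumour came from a mouse with the Eµ-myc transgene, which places Myc under an enhancer of the immunoglobulin heavy chain locus and so overexpresses it in B lineage cells. No mouse without the transgene was profiled in the samples used here. RNA came from frozen tumour tissue or from dissociated cells, and the sources used here do not give strain, age or which of these applied to a tumour. Nothing in the labels says whether any tumours shared a mouse, so the p-values measure only the spread between these arrays.

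A cell that gains a whole chromosome usually makes more RNA from most of its genes, which is why a chromosome-wide shift on an array is often read as a copy number change; no DNA measurement is used here. Such aneuploid cells are known to produce unbalanced amounts of protein subunits, and chaperones, the proteasome and autophagy deal with the surplus. The spindle checkpoint guards against unequal division, p53 halts cells that divided badly, and DNA from missegregated chromosomes can switch on interferon genes through the sensor cGAS. In Eµ-myc lymphomas the Arf-Mdm2-p53 pathway is a well known target of inactivation. Array values are log2 expression values per gene, so a difference of 1 is a doubling on this scale. In a bulk tumour, fewer cells of a type and less RNA per cell cannot be told apart.

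The chromosome values that chose the groups are given as a description, with no test. Relative to the tumour's own median chromosome, the largest absolute shift of any chromosome lay between 0.0453 (D9) and 0.0726 (D24) in the 12 tumours without a shift, with a median of 0.0625. In the 20 tumours with a shift the largest ran from 0.238 (D1) through a median of 0.304 to 0.593 (D14). No tumour lay near the limit, and limits of 0.1 and 0.2 gave the same 12 tumours. D24 was closest to the limit among the 12 and D1 among the 20. When the values were not centred within each tumour, D24 passed the limit on chromosome 12 and 31 of the 32 tumours were placed as stated, since every chromosome of D24 lay low.

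The 20 tumours held 31 shifts, of which 28 were upward and 3 downward, called gains and losses here in the sense of expression only. A single chromosome was shifted in 12 of them, 2 chromosomes in 5 and 3 chromosomes in 3 (D12, D17 and D20). Chromosome 3 was up in 9 tumours, by 0.18 to 0.31 log2, chromosome 15 in 5, chromosome 12 in 4, chromosome 18 in 3, and chromosomes 10 and 16 in 2 each. Chromosome 5 was up in D7, chromosome 6 in D1 and chromosome 17 in D10. The losses were of chromosome 4 in D28 (-0.28), chromosome 13 in D23 (-0.40) and chromosome 19 in D14 (-0.59). On the gained chromosomes 70.7% to 85.3% of the genes lay above their median in the 12 tumours without a shift, and on the lost ones 11.6% to 20.3% did. Of the genes on the other chromosomes in those tumours 44.1% to 58.2% did. A shifted median puts a majority of a chromosome's genes on one side, so these shares follow from the rule. The other 8 chromosomes were shifted in no tumour, and chromosome 3 ran from -0.07 to 0.02 within the 12.

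**Figure D1:**
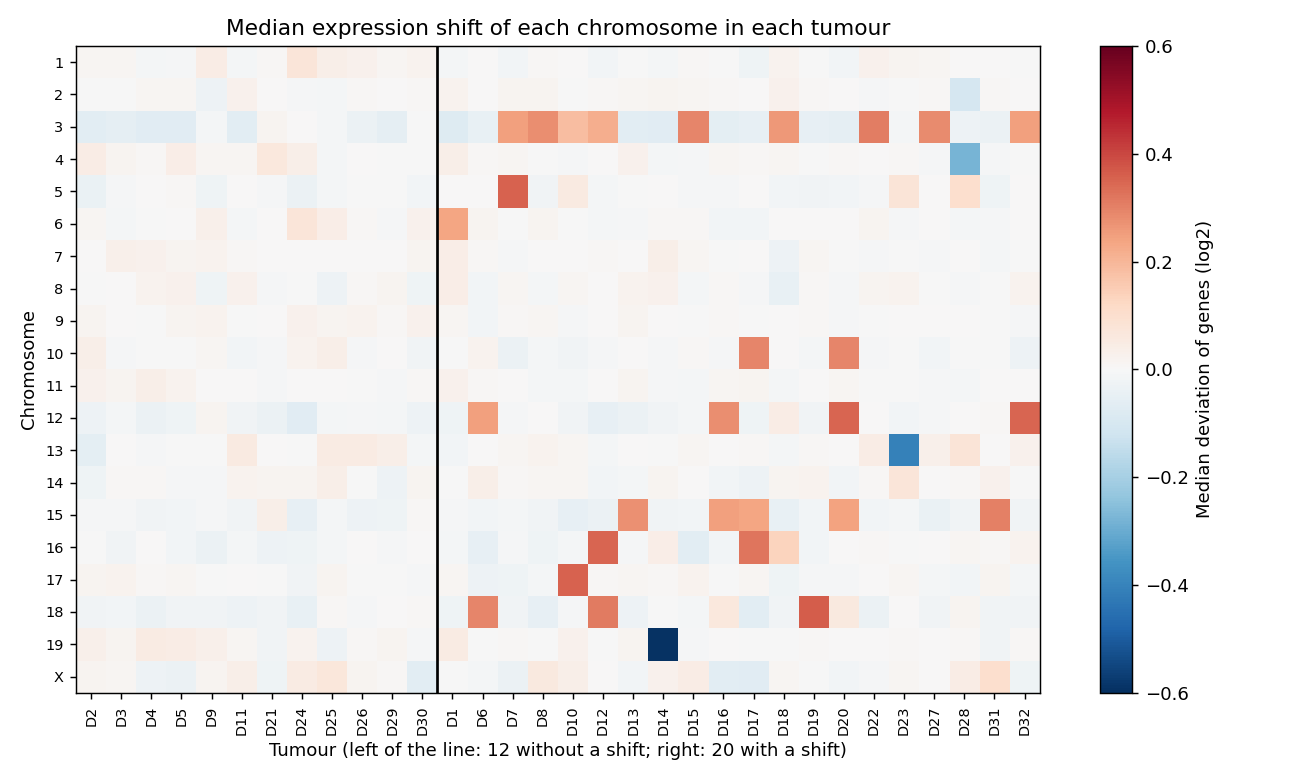
Median deviation of the genes of each chromosome (rows, 1 to 19 and X) in each tumour (columns), in log2 units relative to the tumour's own median chromosome; red is up and blue is down. The 12 tumours left of the line stay within 0.0726 on every chromosome, and the 20 right of it hold 28 gains and 3 losses, with chromosome 3 up in 9.

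The values of a whole tumour that could move with the groups were set side by side before the genes. Array medians lay between 5.72 and 5.799 in all 32 tumours, and no 2 arrays were identical. A sign of RNA quality, the signal near the 3' end of the Gapdh and Actb control transcripts less that near the 5' end, was 0.27 at the lowest, 0.40 at the median and 0.96 at the highest in the 12, against 0.26, 0.39 and 0.90 in the 20. Xist, the RNA of the inactive X, was high in 5 of the 12 and in 13 of the 20. An admixed cell score, the mean of the standardised levels of T cell, macrophage and stroma markers, ran from -0.92 (D29) through 0.31 to 1.68 (D24) in the 12, against -0.75 (D15), -0.23 and 0.31 (D10) in the 20. The 12 therefore spread over a wider range of the score, with 6 of them above every tumour with a shift: D24, D30 (1.34), D2 (1.07), D25 (0.76), D4 (0.44) and D21 (0.33). Low scores occurred among them too, in D29, D11 (-0.29) and D3 (-0.16). The score's part in the grouping was not tested.

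D2 and D24 stood apart from the other tumours, with the highest T cell, NK cell and interferon levels of all 32 and the lowest B lineage levels. Of the B lineage list, 13 of 14 genes were tested, and their mean level was 9.89, 10.78 and 11.31 (lowest, median and highest) in the 12, against 10.36, 10.67 and 11.35 in the 20. Cd79a and Cd79b, the signalling chains of the B cell receptor, were bright in both groups: Cd79a had values of 9.37, 11.18 and 11.62 in the 12, against 10.64, 11.13 and 11.64 in the 20. Vpreb3, a gene of early B cells, had values of 5.88, 11.07 and 12.16 in the 12, against 9.78, 11.36 and 11.95 in the 20. Only D24 (5.88) and D2 (7.87) lay below the 20, and the difference of -0.79 became -0.07 without them. The median difference of the B lineage list was -0.11 with 1 gene lower at an unadjusted p under 0.05, and -0.03 with 0 without D2 and D24. Results of the lists are therefore given with and without this pair.

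No gene passed the test between the groups. Differences are written as the mean of the 12 tumours without a shift minus the mean of the 20 with one. They were tested with limma after each gene's value had been lowered or raised by its own chromosome's shift in that tumour. This takes out the chromosome's median shift, by which the groups were chosen, but not a larger response of a single gene. Levels per tumour are the deposited values. Of 11183 genes, 0 were higher and 0 were lower in the 12 at an adjusted p under 0.05 (0.0% in each direction), and the lowest adjusted p was 0.0897. At an unadjusted p under 0.05, 1058 genes were higher (9.46%) and 816 lower (7.3%). Leaving out D2 and D24 gave 583 (5.21%) and 468 (4.18%). With the admixed cell score as a covariate they were 275 (2.46%) and 197 (1.76%).

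Whether any gene passed depended on single tumours. Without D11, a tumour with a low admixed cell score, 24 genes were higher and 14 lower at an adjusted p under 0.05. Without D26 the counts were 4 and 2, without D16 1 and 1, and without D19 0 and 1, while leaving out any of the other 28 gave 0 in both directions. The genes concerned without D26, D16 or D19 were Vsir, Fndc3b, Il6st and Neurl3 on the higher side, and Znhit6 and Pwp1 on the lower side. Each of these 6 is described next, by the rule that names the genes with the smallest p.

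Vsir, which encodes the inhibitory immune receptor VISTA found mainly on myeloid cells and T cells, had values of 6.67, 7.81 and 8.99 in the 12 tumours without a shift (lowest, median, highest), against 5.87, 6.89 and 7.69 in the 20 with one. D2 and D24 were the highest, and 7 of the 12 lay above all 20. The difference was 1.003 (95% interval 0.58 to 1.43, limma adjusted p = 0.0897). It was 0.78 without D2 and D24, and 0.60 with the admixed cell score as a covariate.

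Il6st encodes the signal chain shared by the receptors of the interleukin 6 family. It had values of 7.89, 8.61 and 9.20 in the 12, against 6.62, 7.76 and 8.49 in the 20. All 12 lay above the median of the 20 and 7 above every one of them, with a difference of 0.86 (0.48 to 1.23, adjusted p = 0.0897). Fndc3b, a membrane protein with fibronectin type III domains, differed by 0.92 (0.52 to 1.31) and by 0.82 without D2 and D24. Neurl3, a ubiquitin ligase of the neuralized family, differed by 0.41 (0.23 to 0.58) both with and without these tumours, and again all 12 lay above the median of the 20. The nudix hydrolase gene Nudt18 differed by 0.30 (0.17 to 0.44, adjusted p = 0.107) and Os9, a lectin that marks misfolded proteins of the endoplasmic reticulum for disposal, by 0.32 (0.17 to 0.47, adjusted p = 0.107).

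The gene with the smallest p of all was Znhit6, an assembly factor of the small nucleolar ribonucleoproteins that modify ribosomal RNA. It had values of 9.05, 9.61 and 9.92 in the 12, against 9.45, 10.05 and 10.66 in the 20, and all 12 lay below the median of the 20. Its gene lies on chromosome 3, so its deposited values in 9 of the 20 also carry the gain of that chromosome. With the chromosome's median shift taken out the difference was -0.42 (-0.58 to -0.26, adjusted p = 0.0897), and on the deposited values it was -0.55. A rise of this gene beyond that median in the tumours with the gain would stay in the tested value. The part of the gain in the remaining difference was not tested. D2 had the lowest value, and the difference without D2 and D24 was -0.36.

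Pwp1, a factor of ribosome production, had values of 9.64, 9.86 and 10.30 in the 12, against 9.93, 10.19 and 10.62 in the 20, a difference of -0.27 (-0.38 to -0.15, adjusted p = 0.0897). Rpusd2, a pseudouridine synthase of RNA, had values of 6.42, 7.23 and 7.55 in the 12, against 7.33, 7.57 and 7.93 in the 20. All 12 lay below the median of the 20 and 7 below every one of them, with a difference of -0.40 (-0.57 to -0.22). The tRNA dihydrouridine synthase gene Dus4l differed by -0.50 (-0.73 to -0.26). Ddx20, a helicase of the complex that loads spliceosomal small RNAs, differed by -0.30 (-0.45 to -0.16). Like Znhit6 it lies on chromosome 3, and on the deposited values it differed by -0.43. The gene 1700030K09Rik differed by -0.58 (-0.86 to -0.31), and 9 of the 12 lay below all 20.

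Among the regulators of p53, 11 of 12 genes were tested. Of them 2 had an unadjusted p under 0.05, both lower in the 12: Cdkn2a and Chek1 (18.2%, against 7.3% of all genes). Cdkn2a was bright enough to be tested only through the 20, where it was higher, so this share is a description only. The median difference of the 11 was -0.02, against -0.001 over all genes. It was -0.03 with 2 lower without D2 and D24, and 0.04 with 0 lower with the admixed cell score as a covariate. Trp53 itself is not analysed here. Cdkn2a, the gene of the tumour suppressors Arf and Ink4a, had values of 4.13, 4.95 and 7.41 in the 12, against 3.79, 6.21 and 10.79 in the 20. It lay below 4.5 in 6 of the 12 (D30, D3, D11, D25, D21 and D29) and in 2 of the 20, and above 10 in none of the 12 and in 3 of the 20 (D7, D14 and D23). The groups overlapped below 7.41, and 5 of the 20 lay above that value.

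The difference in Cdkn2a was -1.37 (-2.66 to -0.09), with an unadjusted p of 0.037 and a limma adjusted p of 0.275. Without D2 and D24, which had values of 7.12 and 6.84, it was -1.70. It was -1.49 with the admixed cell score as a covariate (limma unadjusted p = 0.059). The mean of Cdkn2a was 5.35 in the 12, below the limit of 5.78 for dim probe sets, and 6.70 in the 20. The gene therefore passed that filter only through the 20, and its values below 4.5 lie under the limit. Arf stabilises p53 by holding Mdm2, and cells that have lost p53 are known to accumulate Arf. Chek1, a kinase that answers stalled replication, had values of 8.67, 9.26 and 9.51 in the 12, against 8.94, 9.41 and 10.09 in the 20, a difference of -0.26 (-0.43 to -0.09, adjusted p = 0.146). With the admixed cell score as a covariate it was -0.13. D28, the tumour with a loss of chromosome 4, where Cdkn2a lies, had the lowest Cdkn2a value of the 20, at 3.79. Values below 4.5 also occurred in 6 of the 12 tumours without a shift, and the part of the loss was not tested.

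Of 40 p53 targets, 35 were tested, 17 had a difference above 0 and 18 below it, and the median was -0.01. At an unadjusted p under 0.05, 2 were higher in the 12 (5.71%, against 9.46% of all genes) and 5 lower (14.3%, against 7.3%). These counts were 2 and 1 without D2 and D24, when 13 had a difference above 0 and 22 below it, with a median of -0.06. With the admixed cell score as a covariate the median was -0.07, with 0 higher and 3 lower (8.57%, against 1.76%). The 2 higher ones were Abhd4, a lipid hydrolase (difference 0.30), and Dcxr, a sugar reductase (0.31). The 5 lower ones, of which the rule names none and which are given because they are few, were Pidd1, which activates caspase-2 in cells with surplus centrosomes (-0.17), the damage sensor Xpc (-0.24), Gtse1 (-0.16), Rps27l (-0.12) and Ptp4a3 (-0.31).

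The classical readouts of p53 activity overlapped over most of their range. Cdkn1a, the inhibitor of cyclin-dependent kinases that p53 induces, had values of 6.99, 7.82 and 10.59 in the 12, against 6.98, 8.12 and 9.56 in the 20. D2 (10.59) and D30 (10.37) were above every tumour with a shift, while 8 of the 12 lay below the median of the 20. The difference was 0.09 (-0.56 to 0.74), and -0.25 without D2 and D24. It was -0.78 (unadjusted p = 0.0048) with the admixed cell score as a covariate, so its sign differed between these fits. Leaving out D2, D24 or D30 alone also gave a difference below 0. Mdm2, the ubiquitin ligase that degrades p53, differed by 0.03 (-0.11 to 0.17).

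Zmat3, an RNA-binding protein induced by p53, had values of 6.59, 8.15 and 9.39 in the 12, against 6.21, 7.78 and 10.66 in the 20, a difference of -0.01 (-0.85 to 0.83). The 20 spread wider than the 12 on both sides. The gene lies on chromosome 3, and the 9 tumours with a gain of that chromosome had values of 7.93 to 10.66, a range far wider than the shift of the chromosome itself. The 5 with a gain of chromosome 15 had values of 6.36 to 6.95, below every tumour with a gain of chromosome 3.

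**Figure D2:**
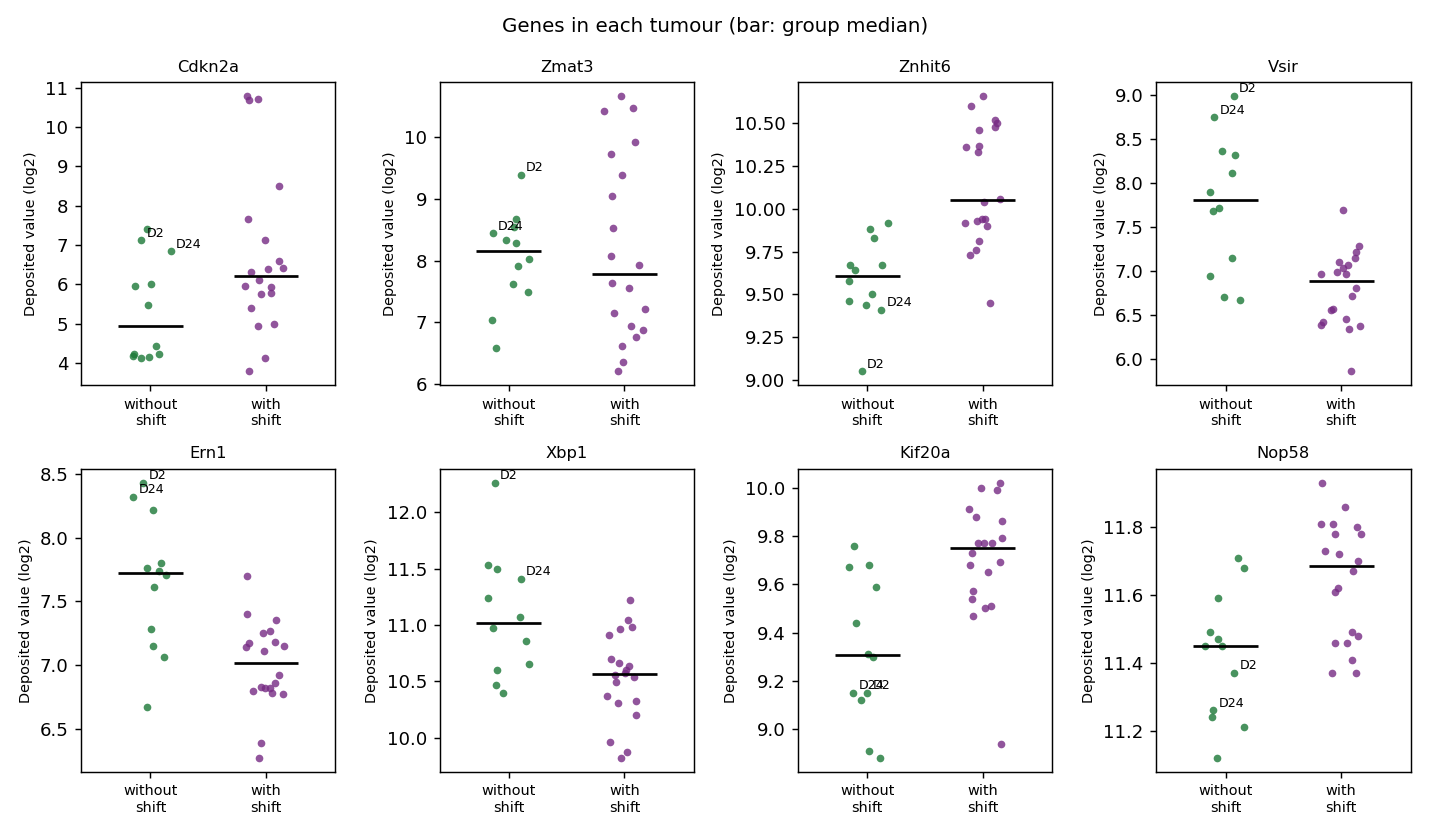
Deposited log2 value of 8 genes in each tumour (points), with the median of each group as a bar; the 12 tumours without a shift are on the left of each panel and the 20 with one on the right, and D2 and D24 are marked. Cdkn2a is above 10 in 3 of the 20 and in none of the 12, Vsir and Ern1 sit higher in the 12, and Znhit6 sits lower; no gene passed the test.

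Spindle checkpoint and kinetochore genes were measured completely, with 32 of 32 tested, and 30 of them had a difference below 0 with a median of -0.13. In the 12, 6 were lower at an unadjusted p under 0.05 (18.8%, against 7.3% of all genes) and 0 higher. These were Nsl1 of the Mis12 kinetochore complex (-0.23), Knl1, the scaffold that docks Bub1 (-0.23), Trip13, an ATPase that takes the checkpoint complex apart (-0.15), the kinesin Cenpe (-0.20), and Zwilch (-0.26) and Zw10 (-0.15) of a complex that brings Mad1 to kinetochores. The median was -0.08 with 3 lower without D2 and D24, and with the admixed cell score as a covariate it was -0.03 with 0 lower (background 1.76%). The low values lay in D24, D25, D30 and D2, the 4 tumours with the highest admixed cell scores, whose mean levels of the list were 9.12, 9.15, 9.19 and 9.20. The other 8 ran up to 9.61, against 9.19, 9.52 and 9.78 in the 20.

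Knl1 had values of 7.50, 7.98 and 8.41 in the 12, against 7.88, 8.20 and 8.42 in the 20. A group of 6 of the 12 lay below all 20 and the others within their range. The core checkpoint kinases and their partners were not under the unadjusted limit. Most of those named here still differed by at least as much as the list's median of -0.13. The checkpoint protein Bub1b differed by -0.15 (-0.38 to 0.09), the kinase Ttk by -0.15 (-0.35 to 0.05), the kinase Aurkb by -0.18 (-0.39 to 0.03) and Mad2l1, which binds Cdc20, by -0.05 (-0.20 to 0.10). Each interval included 0.

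Of the genes of sister chromatid cohesion and separation, 27 of 27 were tested and the median difference was -0.07. Cdc26, a subunit of the anaphase-promoting complex (-0.17), Espl1, the separase that cuts cohesin (-0.27), and Fbxo5, an inhibitor of that complex (-0.30), had an unadjusted p under 0.05 (11.1%). The list's median was -0.03 without D2 and D24, with Cdc26 and Espl1 under the limit (7.41%, against 4.18%). A chromosomal instability signature derived from human tumours, tested with 25 of 25 genes, had a median of -0.13 and 6 lower genes (24%, against 7.3%): Kif20a, Espl1, Rfc4, Rad51ap1, Trip13 and Ncapd2. Its median was -0.09 with 5 lower without D2 and D24, and with the covariate -0.04 with 1 lower, Kif20a. Of its 25 genes, 23 had a difference below 0, and many of them are also genes of dividing cells.

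Kif20a, a kinesin of cell cleavage, had values of 8.88, 9.31 and 9.76 in the 12, against 8.94, 9.75 and 10.02 in the 20. Only 1 of the 20, D18, lay below the median of the 12, and 11 of the 12 lay below the median of the 20. The difference was -0.31 (-0.50 to -0.12, adjusted p = 0.133), -0.29 without D2 and D24, and -0.27 with the covariate. The proliferation list, with 17 of 18 genes tested, had a median of -0.13 and 1 gene under the limit, the helicase subunit Mcm4 (-0.19), which is 5.88% of the list against 7.3% of all genes. That median was -0.12 without D2 and D24, with 0 genes under the limit, and -0.01 with the covariate. The mean level of the list was 9.84 (D30), 10.88 and 11.15 in the 12, against 10.62, 10.985 and 11.14 in the 20. D30 stayed in the fit without D2 and D24. The kinase Cdk1 differed by -0.14 (-0.29 to 0.01).

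Protein stress genes lay on different sides by pathway. Heat shock genes (17 of 21 tested) had a median of -0.07, with 0 genes under the unadjusted limit in either direction, and -0.11 with 0 genes without D2 and D24. Hspa1b, an inducible chaperone, had values of 5.63, 6.85 and 8.85 in the 12, against 5.61, 6.51 and 9.95 in the 20, and the groups overlapped over nearly their whole range. The difference was 0.19 (-0.53 to 0.91). D24 and D2 were the highest of the 12, and without them it was -0.12. The co-chaperone Fkbp4 differed by -0.21 (-0.43 to 0.004) and the small heat shock protein Hspb1 by 0.32 (-0.02 to 0.65).

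Of the cytosolic chaperonin, which folds actin and tubulin, 8 of 8 subunits had a difference below 0, with a median of -0.06 and 2 under the limit (25%, against 7.3%). The median and the count were the same without D2 and D24 (25%, against 4.18%), and with the admixed cell score as a covariate they were -0.04 and 1 (12.5%, against 1.76%). Cct8 had values of 11.62, 11.92 and 12.18 in the 12, against 11.75, 12.11 and 12.43 in the 20, a difference of -0.17 (-0.26 to -0.08, adjusted p = 0.116). Cct3 differed by -0.12 (-0.22 to -0.03). Proteasome subunits (31 of 31 tested) had a median of -0.02 and 4 lower genes (12.9%): Psmd7 (-0.23), Psma5 (-0.14), Psmb7 (-0.12) and Psmd6 (-0.09). The proteasome count was 6 without D2 and D24 (19.4%, against a background of 4.18%) and with the admixed cell score as a covariate 4 (12.9%, against 1.76%).

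Genes of the unfolded protein response, which expands the folding capacity of the endoplasmic reticulum, lay mostly on the other side. All 22 were tested, 18 had a difference above 0, and the median was 0.17. In the 12, 6 were higher at an unadjusted p under 0.05 (27.3%, against 9.46%) and 0 lower: Ern1, Xbp1, Dnajc3, Sel1l, Edem1 and Dnajb9. The median was 0.03 without D2 and D24, with 5 higher (22.7%, against 5.21%). With the covariate it was 0.08 with 1 higher, Ern1.

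Ern1, the sensor that splices Xbp1 RNA when proteins misfold, had values of 6.67, 7.73 and 8.43 in the 12, against 6.27, 7.01 and 7.70 in the 20. D2, D24 and D9 were the highest, 7 of the 12 lay above all 20, and D30 was the only one of the 12 below the median of the 20. The difference was 0.65 (0.34 to 0.96, adjusted p = 0.107), 0.49 without D2 and D24, and 0.50 with the covariate. Xbp1, the transcription factor it activates, had values of 10.41, 11.02 and 12.26 in the 12, against 9.82, 10.57 and 11.22 in the 20, a difference of 0.55 (0.22 to 0.88, adjusted p = 0.133). Edem1 (0.56) and Sel1l (0.24) act in the disposal of misfolded proteins from the endoplasmic reticulum, and Dnajc3 (0.44) and Dnajb9 (0.28) are co-chaperones there. Its main chaperone Hspa5 differed by only 0.10 (-0.14 to 0.34).

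Xbp1 and several of these genes are also highly expressed in plasma cells. The plasma cell list (5 of 8 tested) had mean levels of 6.50, 8.27 and 10.83 in the 12, against 6.85, 7.71 and 9.87 in the 20, with a median difference of 0.61 (0.30 without D2 and D24) and 0 genes under the limit in either case. D2 was the highest tumour both there and in the unfolded protein response list. Its part in the result was not tested. Genes of the integrated stress response (17 of 21 tested) had a median of -0.04. At an unadjusted p under 0.05, Ppp1r15a, a phosphatase subunit that restores translation, was higher (0.20) and the serine synthesis enzyme Psat1 lower (-0.23). Each is 5.88% of the list, below the shares of all genes (9.46% higher and 7.3% lower). The median was -0.03 without D2 and D24, with Psat1 and the folate enzyme Mthfd2 lower (11.8%, against 4.18%). Its transcription factors Atf4 and Ddit3 differed by -0.02 (-0.16 to 0.12) and 0.08 (-0.13 to 0.29).

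The tested autophagy genes lay on one side. Of 15, 13 were tested, and all 13 had a difference above 0 with a median of 0.13. At an unadjusted p under 0.05, 6 were higher (46.2%, against 9.46%) and 0 lower: the cargo receptors Nbr1 and Sqstm1, the membrane-bound proteins Map1lc3b and Gabarapl1, and the lysosomal proteins Lamp1 and Lamp2. The mean level of the list was 8.96, 9.13 and 9.36 in the 12, against 8.80, 8.96 and 9.18 in the 20. All 12 lay above the median of the 20, and D2, D3, D24, D25, D29 and D30 above every one of them. Of all 32 tumours, D24, D30, D2 and D25 had the highest admixed cell scores and D29 the lowest.

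Nbr1 had values of 9.22, 9.47 and 9.96 in the 12, against 8.85, 9.25 and 9.53 in the 20, a difference of 0.27 (0.11 to 0.43, adjusted p = 0.123). Lamp2 differed by 0.34 (0.09 to 0.58, adjusted p = 0.18). Without D2 and D24 the list's median stayed near its value at 0.13, but only Nbr1 and Map1lc3b were under the limit (15.4%, against 5.21%). With the covariate the median was 0.08 and Nbr1 alone was under it. Macrophages are rich in lysosomes, and the covariate includes their markers. The part of these cells in the autophagy levels was not tested.

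**Figure D3:**
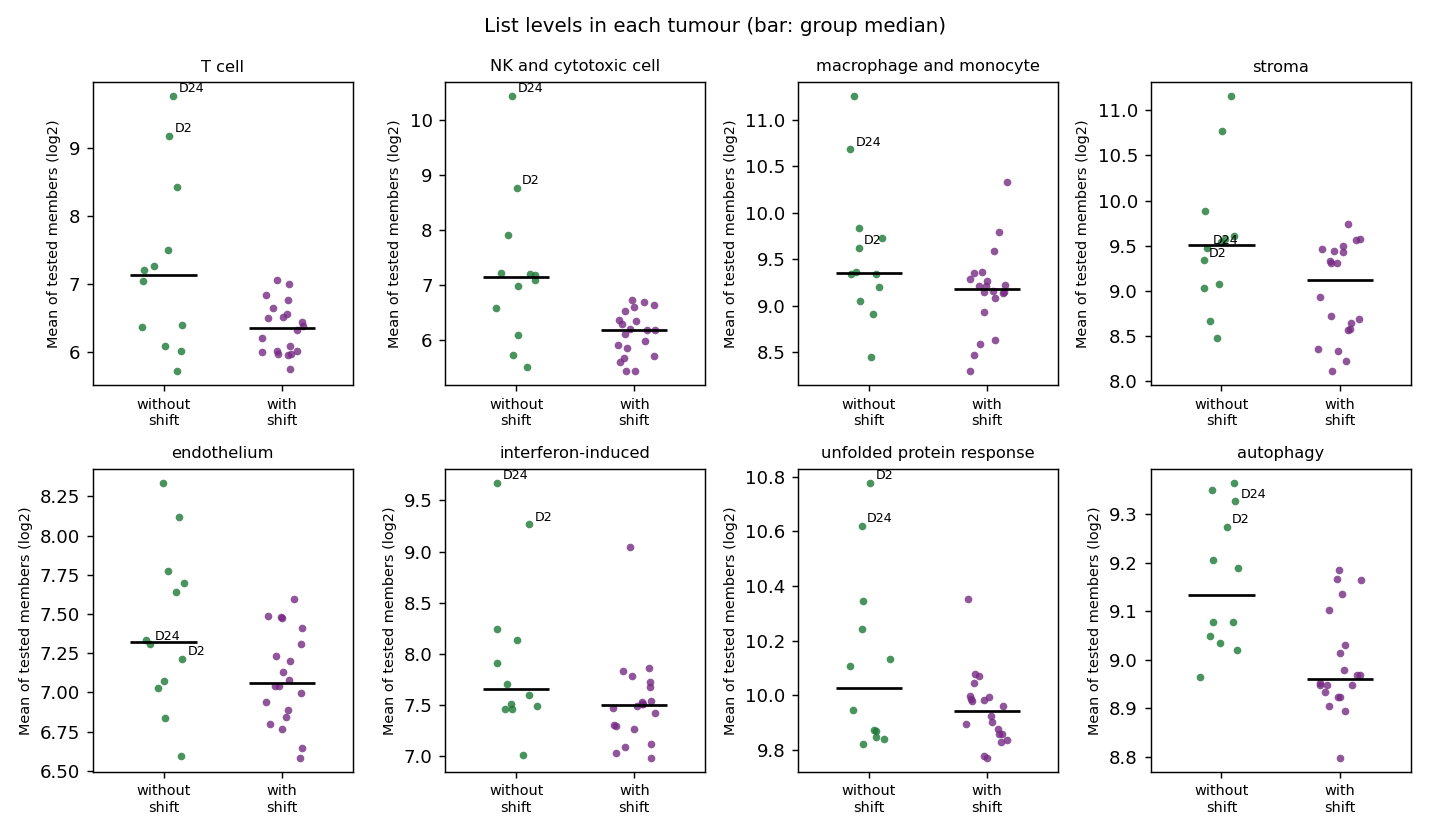
Mean deposited log2 value of the tested genes of 8 lists in each tumour (points), with the median of each group as a bar; the 12 tumours without a shift are on the left of each panel, the 20 with one on the right. D24 and D2 top the T cell, NK cell and interferon panels, whereas all 12 tumours lie above the median of the 20 in the autophagy panel.

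Interferon-induced genes had higher means in the 12, mainly through D2 and D24. Of 38, 33 were tested and all 33 had a difference above 0, with a median of 0.39. At an unadjusted p under 0.05, 13 were higher (39.4%, against 9.46%) and 0 lower. Without D2 and D24 the median was 0.13 and only Igtp was under the limit (3.03%, against 5.21%), and with the covariate the median was -0.09 with 0 genes. The mean level of the list was 7.01, 7.65 and 9.67 in the 12, against 6.98, 7.50 and 9.04 in the 20. D24 (9.67) and D2 (9.27) were the highest of all, and D10 (9.04) was the only tumour with a shift above 8.

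Igtp, a GTPase induced by interferon gamma, had values of 8.17, 8.51 and 12.16 in the 12, against 7.74, 8.23 and 9.50 in the 20. The value of D24 was 12.16 and that of D2 10.19, and the other 10 lay within the range of the 20. The difference was 0.73 (0.18 to 1.29, adjusted p = 0.19), and 0.28 without D2 and D24. Gbp2, of the same kind, differed by 1.08, and by 0.46 without them. Cxcl10, a chemokine that draws T cells, had values of 5.15, 6.35 and 11.30 in the 12, against 5.17, 5.97 and 9.09 in the 20. Its difference of 0.85 (-0.08 to 1.79) became 0.12. Ifit1, induced by type I interferon, differed by 0.73 (-0.07 to 1.53), and by 0.29 without D2 and D24. The mean of Ifit1 was 5.68 in the 20, below the limit of 5.78 for dim probe sets, and 6.44 in the 12. It therefore passed that filter only through the 12.

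Of the 12 genes that sense or clear DNA in the cytoplasm, 9 were tested, with a median near 0 (0.01, and 0.02 without D2 and D24) and 0 under the limit in either direction in both cases. Samhd1, which degrades the building blocks of DNA, differed by 0.29 (-0.12 to 0.69) and Rnaseh2a, a subunit of an RNase that removes ribonucleotides from DNA, by -0.15 (-0.37 to 0.06). Isg15 is not analysed here.

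Markers of admixed cells had a median difference above 0 in each of 6 lists of blood, stromal and vessel cells. T cell markers (8 of 18 tested, 5 too dim) had a median difference of 0.83, with 6 genes higher at an unadjusted p under 0.05 (75%, against 9.46%). NK and cytotoxic cell markers (4 of 10 tested, 5 too dim) had 1.24 with 3 higher (75%): Ccl5, Klrd1 and Nkg7. Stroma markers (12 of 12) had 0.59 with 6 higher (50%), and macrophage and monocyte markers (13 of 14) 0.41 with 5 higher (38.5%). Endothelium markers (9 of 10) had 0.33 with 4 higher (44.4%), and neutrophil markers (8 of 12) 0.37 with 0 higher. The share of all genes is the same 9.46% for each list. No list had a gene that passed the adjusted test. Leaving out D2 and D24 gave medians of 0.44 for T cells, 0.69 for NK cells, 0.30 for macrophages and 0.43 for neutrophils. For T cells 1 gene was then under the limit (12.5%), for NK cells 3 (75%), for macrophages 1 (7.69%) and for neutrophils 0. Of all genes 5.21% were higher in that fit. The T cell gene was Cd3g, which was bright enough to be tested only through the 12. The T cell shares with and without D2 and D24 include it and are a description only.

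The lymphoid markers were concentrated in certain tumours. Cd3g, a chain of the T cell receptor complex, had values of 5.01, 7.33 and 11.41 in the 12, against 4.46, 5.68 and 7.24 in the 20. D24 (11.41), D2 (10.64) and D9 (9.29) were the highest, 6 of the 12 lay above all 20, and D29, D11 and D30 lay near 5. The difference was 1.74 (0.68 to 2.81, adjusted p = 0.133), and 1.003 without D2 and D24, when Cd3g alone of the list was under the unadjusted limit. The mean of Cd3g was 5.63 in the 20, below the limit of 5.78 for dim probe sets, and 7.37 in the 12. It therefore passed that filter only through the 12. Cd3d, of the same complex, differed by 1.32, and by 0.69 without D2 and D24. The mean T cell level ran from 5.72 (D29) to 9.77 (D24) in the 12, a spread of the list that the 20, from 5.75 to 7.06, did not show.

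Ccl5, a chemokine of NK cells and cytotoxic T cells, had values of 6.77, 8.79 and 13.01 in the 12, against 6.22, 7.32 and 8.14 in the 20. D24 was the highest, and 9 of the 12 lay above all 20. The other 3 were D29, D11 and D30. The difference was 1.65 (0.84 to 2.46, adjusted p = 0.107), 1.07 without D2 and D24, and 0.71 with the covariate, which does not contain this gene. Klrd1, an NK cell receptor chain, differed by 1.34 (0.49 to 2.18), and by 0.89 without D2 and D24. The mean level of the 4 NK markers lay above all 20 tumours with a shift in 8 of the 12: D2, D3, D4, D5, D9, D21, D24 and D25.

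Stromal and vessel markers were highest in D25 and D30. The mean stroma level was 8.48 (D29), 9.51 and 11.16 (D25) in the 12, against 8.11, 9.12 and 9.74 in the 20, with D25, D30 and D26 above all 20. D2 and D24 lay in the middle, and without them the median difference of the list was 0.60 with 5 genes under the limit (41.7%, against 5.21%). Pdgfrb, a receptor of pericytes and fibroblasts, had values of 7.002, 8.12 and 9.82 in the 12, against 6.73, 7.61 and 8.71 in the 20. D30 and D25 were the highest, 11 of the 12 lay above the median of the 20, and the difference was 0.72 (0.27 to 1.16, adjusted p = 0.133). The collagen gene Col6a1 differed by 0.57 (0.24 to 0.90), while Col3a1, the collagen of loose tissue, differed by 0.47 (-0.33 to 1.27).

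Without D2 and D24 the endothelium list had a median of 0.36 and 4 genes under the limit (44.4%, against 5.21%). Plvap, a protein of fenestrated vessels, had values of 7.91, 9.90 and 10.61 in the 12, against 7.91, 9.01 and 9.88 in the 20, and 6 of the 12 lay above all 20. The difference was 0.60 (0.14 to 1.06). Kdr, the main receptor for VEGF, differed by 0.33 (0.08 to 0.59). With the covariate, which contains the stroma markers, the median of the endothelium list was -0.02.

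Macrophage markers had mean levels of 8.45 (D29), 9.35 and 11.26 (D30) in the 12, against 8.29, 9.18 and 10.33 (D10) in the 20. Vcam1, an adhesion molecule of macrophages and stroma, had values of 10.18, 10.84 and 12.29 in the 12, against 9.33, 10.45 and 11.34 in the 20. D24 and D30 were the highest and 11 of the 12 lay above the median of the 20. Its difference was 0.73 (0.31 to 1.16, adjusted p = 0.123), and 0.60 without D2 and D24, when it was the only gene of the list under the limit. The growth factor receptor Csf1r differed by 0.74 (0.16 to 1.32), and lysozyme, Lyz2, by 0.39 (-0.29 to 1.06). The granule proteins S100a8 and S100a9 of neutrophils each differed by 0.69, with intervals of -0.76 to 2.14 and -0.84 to 2.21.

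Salivary gland transcripts were present at a high level in some tumours of both groups. Bpifa2, a secreted salivary protein, was above a wide gap in 6 of the 12 (D3, D4, D9, D25, D29 and D30) and in 5 of the 20. Its difference of 2.55 had an interval of -0.78 to 5.88. None of the 10 tested genes of the list had an unadjusted p under 0.05 in all 32 tumours, and without D2 and D24, both of which lacked the transcripts, 4 did (40.0%, against 5.21%): Bpifa2, Amy1, Cst10 and Dcpp3. Fat cell markers (5 of 10 tested) had a median of 0.30, or 0.39 without D2 and D24, with 0 under the limit in both cases. Of the erythroid list only Car2 was tested (0.84, -0.20 to 1.88), since 6 other members were too dim.

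**Figure D4:**
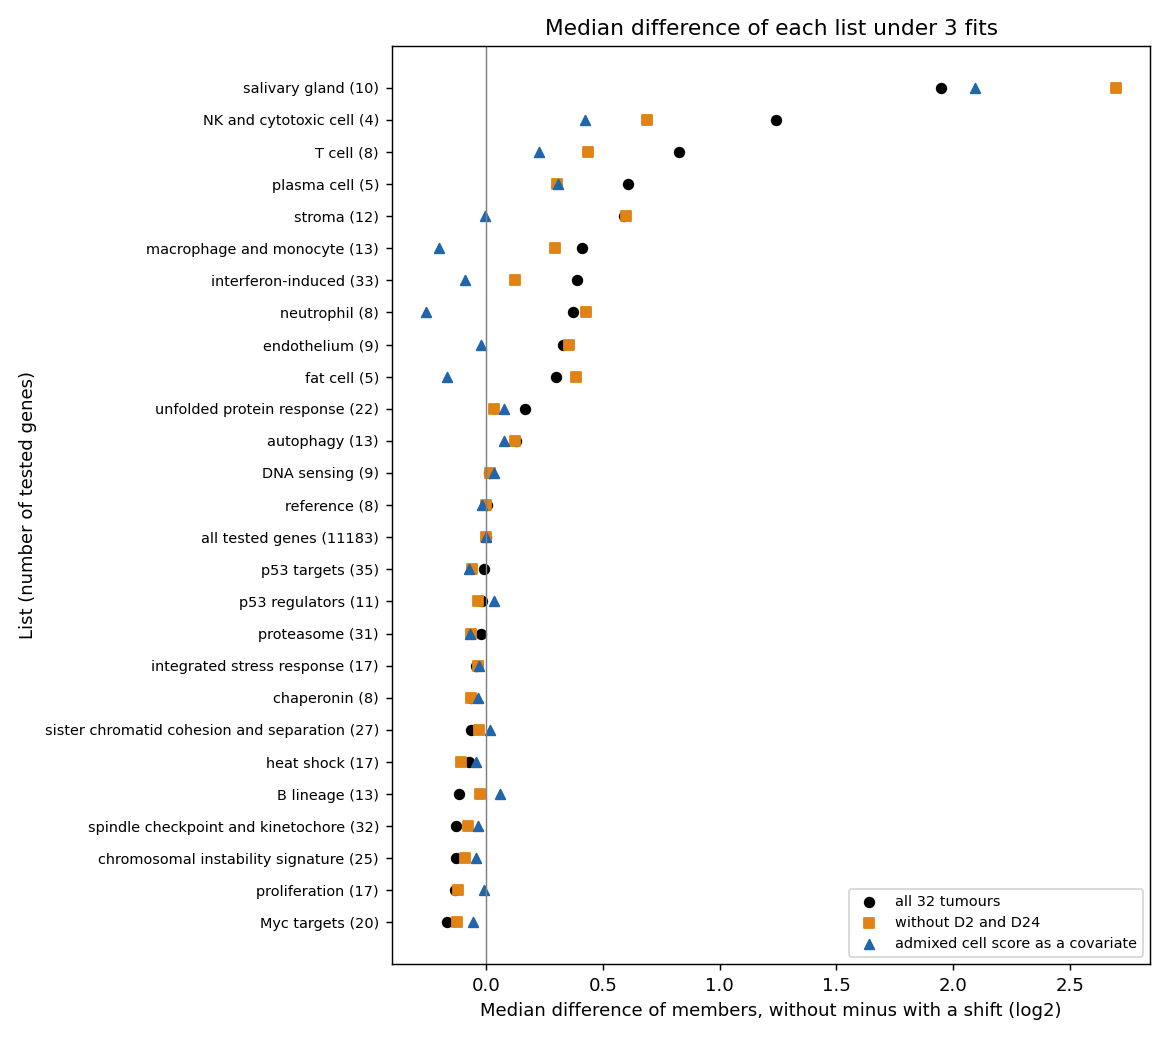
Median difference of the tested genes of each list (12 tumours without a shift minus 20 with one, log2), for all 32 tumours (circles), without D2 and D24 (squares) and with the admixed cell score, itself made of T cell, macrophage and stroma markers, as a covariate (triangles). Stroma and endothelium keep their medians without D2 and D24 but lie near 0 with the covariate, and interferon drops to 0.13 without D2 and D24. The Myc target, proliferation and spindle lists lie below 0 in each fit, but closest to it with the covariate (-0.055, -0.006 and -0.034).

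Myc targets lay below 0 together. All 20 were tested, all 20 had a difference below 0, the median was -0.17, and 6 were under the unadjusted limit (30%, against 7.3%). The mean level of the list was 10.98 (D30), 11.41 and 11.66 in the 12, against 11.28, 11.58 and 11.74 in the 20. D30, D24, D25 and D2 were the lowest, the same 4 that had the highest admixed cell scores. The median was -0.12 without D2 and D24, with 3 lower: Nop58, Eif4e and Pa2g4. With the covariate it was -0.06 with 1 lower, Nop58.

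Nop58, a core protein of the box C/D small nucleolar ribonucleoproteins that Znhit6 helps assemble, had values of 11.12, 11.45 and 11.71 in the 12, against 11.37, 11.69 and 11.93 in the 20. The 4 lowest of the 12 lay below all 20 and only 1 of the 12, D11, lay above the median of the 20. The difference was -0.23 (-0.37 to -0.10, adjusted p = 0.123), -0.22 without D2 and D24, and -0.16 with the covariate. Eif4e, which binds the RNA cap for translation, differed by -0.22 (-0.38 to -0.06). Myc, whose probe set reads the mouse gene, had values of 9.81, 11.23 and 11.78 in the 12, against 10.84, 11.38 and 12.30 in the 20. D2, D9 and D24 were the lowest, and the difference was -0.29 (-0.64 to 0.06), or -0.12 without D2 and D24. The reference genes (8 of 10 tested) had a median of 0.004 with 1 gene higher and 1 lower, and 0.001 with 0 in both directions without D2 and D24.

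The 12 tumours without a shift also varied more among themselves than the 20 did. The median SD of a gene was 0.286 over the 12 and 0.237 over the 20, and the SD was larger in the 12 for 67.2% of genes. Without D2 and D24 the median SD was 0.261 and the share 57.9%. Both group sizes and the admixed cell score differ, and their part in the spread was not tested.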

How the data were processed

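RNA of 32 tumours was hybridised to Affymetrix Mouse430_2 arrays, 1 per tumour. Per the submitters' processing notes, the authors made the deposited log2 values, 1 for each probe set, with RMA from the affy package; the sources used here give no version or parameters. RMA equalises the arrays' distributions, so a change common to most genes would not show.

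The platform annotation gave a single symbol for 34958 of 45101 probe sets, several for 932 and none for 9211, and 34754 matched RefSeq genes of GRCm38.p6, which gave the chromosome. Probe sets with a mean below the median probe set mean (5.78) were left out, and each gene was read from its probe set with the highest mean, which left 11228 genes. Another 45 without a chromosome from 1 to 19 or X were not tested.

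A shift was the median, over a chromosome's genes, of the deviation from the gene's median over the tumours; for the grouping it was taken relative to the tumour's own median chromosome. Membership follows the stated tumour numbers. The test was limma 3.58.1 in R 4.3.3 (lmFit, eBayes, Benjamini-Hochberg over 11183 genes), on values less the own chromosome's shift, not centred within the tumour. The other steps ran in Python 3.11.15 with pandas 2.3.3, numpy 2.4.6, matplotlib 3.10.9 and scipy 1.17.1. Lists are described by counts and medians, with no set test. The steps were tested on simulated data.

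Members and lists were chosen with earlier results of these data known. Named genes are the 6 with the smallest p in each direction, of each list the 2 with the smallest p, and a fixed set of well known genes; others are named where a count is small, after their values were seen. Alternatives were the deposited values, tumours whose only shift lies on a gene's chromosome left out, no D2 and D24, each tumour left out, limits of 0.1 and 0.2, the mean of probe sets, no filter and a 75th percentile filter, renewed quantile normalization, and the admixed cell score, the 3' minus 5' difference or Xist as a covariate. The labels name no batch. The number of arrays limits the precision.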

Additional observations from a re-analysis of the deposited data

How the results depend on the processing

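At an adjusted p under 0.05, 0 genes were higher and 0 lower in the 12 tumours without a shift under every setting run with all 32 tumours, except that the filter at the 75th percentile, which tests fewer genes, called 1 lower gene, Znhit6. With each tumour left out in turn the counts ranged from 0 to 24 higher and from 0 to 14 lower, the highest without D11. At an unadjusted p under 0.05 these leave-one-out counts ranged from 747 to 1269 higher and from 602 to 1014 lower. The unadjusted counts moved to 583 higher and 468 lower without D2 and D24, 275 and 197 with the admixed cell score as a covariate, and 625 and 472 with the 75th percentile filter. On the deposited values 914 genes were higher and 1043 lower, and the median of all genes was -0.02. Without the filter on dim probe sets, 25 tumours in place of 12 had no shift past 0.15; the cause was not tested. Of 82 named genes, 24 changed the sign of their difference in at least 1 planned setting and 4 with a tumour left out, and none of these passed the adjusted test in the fit of all 32 tumours. No paired analysis was possible because the labels give 1 group and no shared replicate numbers. All medians and counts per list rest on genes bright enough to pass the filter.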

Other observations

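The 38 genes that passed the adjusted test when D11 was left out were looked at after their values were seen, so the values are a description. Among the 24 higher genes were Creb3l2, a transcription factor of the endoplasmic reticulum membrane (difference 1.04 without D11, 0.96 with it), Kdelr3, which returns resident proteins to that compartment (0.48 and 0.42), Mia3, which loads collagen into transport vesicles (0.24 and 0.22), and Ccpg1, a receptor for autophagy of that compartment (0.52 and 0.48), beside Ern1, Os9, Cd83 (1.44 and 1.32), Gpr18 (1.14 and 1.06), Serping1 (1.09 and 1.02) and Rarres2 (0.70 and 0.63). Among the 14 lower genes were Prmt5, an arginine methyltransferase (-0.31 and -0.28), Nol11 of ribosomal RNA processing (-0.40 and -0.35), Pole, a replicative DNA polymerase (-0.36 and -0.32), and Larp7, which binds a small nuclear RNA that holds back transcription elongation (-0.26 and -0.24).

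Within the 20 tumours with a shift, the p53 target Cdkn1a stood the other way round from Zmat3: it had values of 8.27 to 9.56 (median 9.16) in the 5 with a gain of chromosome 15, and of 7.32 to 8.97 (median 8.13) in the 9 with a gain of chromosome 3. The median was 7.62 in the other 6. These groups were formed after the values were seen and overlap for Cdkn1a.

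The 3 tumours with Cdkn2a above 10 were D7, D14 and D23. D14 and D23 hold 2 of the 3 chromosome losses, while D7 holds only gains, of chromosomes 3 and 5. D28, which holds the other loss, had the lowest Cdkn2a value of the tumours with a shift, at 3.79. That loss is of chromosome 4, where Cdkn2a lies. The pairing was made after the values were seen, and a link between Cdkn2a and losses was not tested.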
